A study of Mus musculus with 2 samples.

Results

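The interferon response genes described here are 39 mouse genes that cells switch on after interferon reaches them. They were taken by symbol from a fixed list, and 38 of them were present among the 32285 features of the count tables, while Mx1 was not analysed here. They were followed in 2 single-cell RNA libraries of mouse maxillary periodontium, the gum, ligament and bone around the upper teeth. The libraries carry the titles RP and 377P, and the series title concerns the resolution of diabetic periodontitis. Beyond the tissue, the labels state no genotype, age, treatment or time for either library and do not say what the titles stand for. Each title has 1 library, so no difference between them has a replicate check, no test was made and no p-value is given.

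Interferons are secreted alarm proteins. Type I interferons, such as those encoded by the Ifna genes and Ifnb1, act through the receptor Ifnar1 and Ifnar2 and a factor complex that contains Stat2 and Irf9 and binds the interferon-stimulated response element. Interferon gamma, made mainly by T and NK cells, acts through Ifngr1 and Ifngr2 on genes with a gamma-activated site, and it induces the further factor Irf1. The members were accordingly kept as 3 lists. The Ifit type list holds 21 measured antiviral genes typical of type I interferon, such as Ifit1, Isg15 and Rsad2. The interferon gamma type list holds 13 genes, among them Cxcl9, the guanylate-binding proteins and the immunity-related GTPases. The remaining 4 genes, Cxcl10, Ifi203, Ifi204 and Ifi205, respond strongly to both kinds.

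Several members lie side by side in the genome (GRCm38, GENCODE vM21). Ifit2, Ifit3 and Ifit1 lie on chromosome 19, Gbp5, Gbp7, Gbp3 and Gbp2 on chromosome 3, Cxcl9 beside Cxcl10 on chromosome 5, Psmb9, Tap1 and Psmb8 on chromosome 17, and Ifi204, Ifi203 and Ifi205 on chromosome 1. The 250 bases before the start of 30 members were found in RefSeq promoters of build GRCm38.p6 and searched for the core of the interferon-stimulated response element, GAAANNGAAA on either strand, and for the gamma-activated site, TTCNNNGAA, which reads the same on both strands. The first motif was in 16 of the 30 members (53.3%), against 936 of 27025 genes (3.46%), and the second in 8 of 30 (26.7%), against 2197 of 27025 (8.13%). By list, the response element was in 7 of 16 Ifit type and 6 of 11 interferon gamma type members, and the gamma-activated site in 3 of 16 and 5 of 11. A match is a string of letters, not a known binding site.

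The stretches below belong to members whose levels the results turn on. Cxcl9 is added because it had the highest ratio of its list in fibroblasts, and its whole 250 bases held no match to either string. They read 5′ to 3′ on the gene's strand, all lie upstream of the RefSeq transcription start, and capitals mark matches to either motif. The first 3 are Ifit type genes on chr19:34640770-34640829 (+), chr4:156200852-156200911 (-) and chr12:26456528-26456587 (-), in which the 3 response elements of Isg15 overlap. Cxcl10 lies at chr5:92349058-92349117 (-). The next 4 are interferon gamma type genes at chr3:142620589-142620648 (+), chr3:142530268-142530327 (+), chr11:58199507-58199555 (+) and chr11:53769909-53769968 (+), and the Cxcl9 stretch is chr5:92328080-92328279 (-). The GENCODE start of Gbp2, at position 142620602, lies within the Gbp2 stretch and before its marked element. Igtp shows a gamma-activated site followed by a response element, and Irf1 a gamma-activated site.
Ifit1: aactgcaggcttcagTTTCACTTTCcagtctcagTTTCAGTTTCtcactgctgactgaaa
Isg15: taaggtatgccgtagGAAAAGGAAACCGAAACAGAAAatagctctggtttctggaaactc
Rsad2: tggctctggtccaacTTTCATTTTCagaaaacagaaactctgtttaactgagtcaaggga
Cxcl10: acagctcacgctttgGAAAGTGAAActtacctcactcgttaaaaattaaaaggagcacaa
Gbp2: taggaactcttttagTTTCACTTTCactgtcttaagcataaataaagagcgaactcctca
Gbp7: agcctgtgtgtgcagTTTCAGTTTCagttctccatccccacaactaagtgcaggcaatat
Igtp: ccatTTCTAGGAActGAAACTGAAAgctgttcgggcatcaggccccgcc
Irf1: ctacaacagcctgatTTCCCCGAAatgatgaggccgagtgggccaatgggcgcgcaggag
Cxcl9: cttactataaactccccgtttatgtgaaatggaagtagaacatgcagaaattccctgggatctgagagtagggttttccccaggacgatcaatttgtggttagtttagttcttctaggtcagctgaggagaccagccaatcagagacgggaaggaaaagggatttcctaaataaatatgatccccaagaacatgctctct

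The RP library held 18112 barcodes with 120909095 UMIs (unique molecular identifiers, 1 per captured RNA molecule), and the 377P library 15466 barcodes with 127094166 UMIs. After removal of called doublets and of cells with over 20% mitochondrial UMIs, 16721 RP cells and 14515 377P cells remained, at medians of 4301 and 5102 UMIs. Among them, 69 barcodes occurred in both libraries. A cell was put in a class when at least 3 marker genes of that class stood above its library's pooled share, which placed 65.3% of RP cells and 62.3% of 377P cells. A level is given as CPM, the UMIs of a gene per 1000000 UMIs of all cells of the class, with a 95% Poisson interval. Intervals cover counting error only, so they leave out both the spread between animals and the clumping of UMIs in single cells. The same class was often filled by different cell states in each library. Epithelial cells shared no cluster with at least 30 cells of each library, and most fibroblasts sat in cluster 9 in RP (2411 of 3096 cells) but in cluster 8 in 377P (1771 of 2318). Macrophages fell in 1 cluster, number 5, with 599 of 604 RP and all 327 377P cells.

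The 2 main lists were highest in different cells. Of 21 Ifit type members, 11 had their highest level in monocytes or macrophages in RP and 9 in 377P. Of these, 9 in RP and 6 in 377P stood above the next class by more than counting error. Of 13 interferon gamma type members, 7 had their highest level in blood endothelium in RP and 8 in 377P, and 4 and 6 of these did so by more than counting error. The share of all genes highest in each class was not computed. The highest class was the same in both libraries for 25 of all 38 members.

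Macrophages carried the RNA sensor Ifih1 at 416 CPM in RP and 286 CPM in 377P, which was 10.1 times the next class, blood endothelium, in RP and 5.29 times in 377P. The antiviral enzyme Rsad2 stood 7.29 times above blood endothelium in RP and 1.90 times above neutrophils in 377P. Iigp1, an immunity-related GTPase that attacks the vacuoles of intracellular parasites, was highest in endothelium, at 372 CPM in RP and 356 CPM in 377P blood endothelium. Its next class, perivascular cells, had 78.1 CPM in RP and 109 CPM in 377P. Gbp4 was also highest there, with 46.0 CPM in RP and 53.3 CPM in 377P blood endothelium against 15.99 CPM in RP and 19.5 CPM in 377P T or NK cells. Ifi205, of the interferon-inducible family of DNA-binding proteins, was a fibroblast gene in both libraries, at 93.4 CPM in RP and 128 CPM in 377P, 3.79 times the macrophage level in RP and 3.61 times in 377P.

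Some members had no clear order. For Irf1, blood and lymphatic endothelium stood at 602 and 601 CPM in RP, and at 527 and 542 CPM in 377P, within counting error of each other. Ifit3, Irf9, Usp18, Rtp4, Xaf1, Ifi35, Gbp3 and Gbp7 likewise had intervals of the ratio of their first 2 classes that included 1 in both libraries. In 377P but not in RP, this also held for Ifit1 and Isg15, among others. There Ifit1 had 54.3 CPM in macrophages and 45.4 CPM in blood endothelium, and Isg15 114 CPM in macrophages and 106 CPM in neutrophils. Epithelial and gland cells had low levels of most members, with 162 and 176 CPM for all 21 Ifit type genes in RP and 129 and 229 CPM in 377P, against 1924.5 CPM in RP and 1446 CPM in 377P macrophages.

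**Figure D1:**
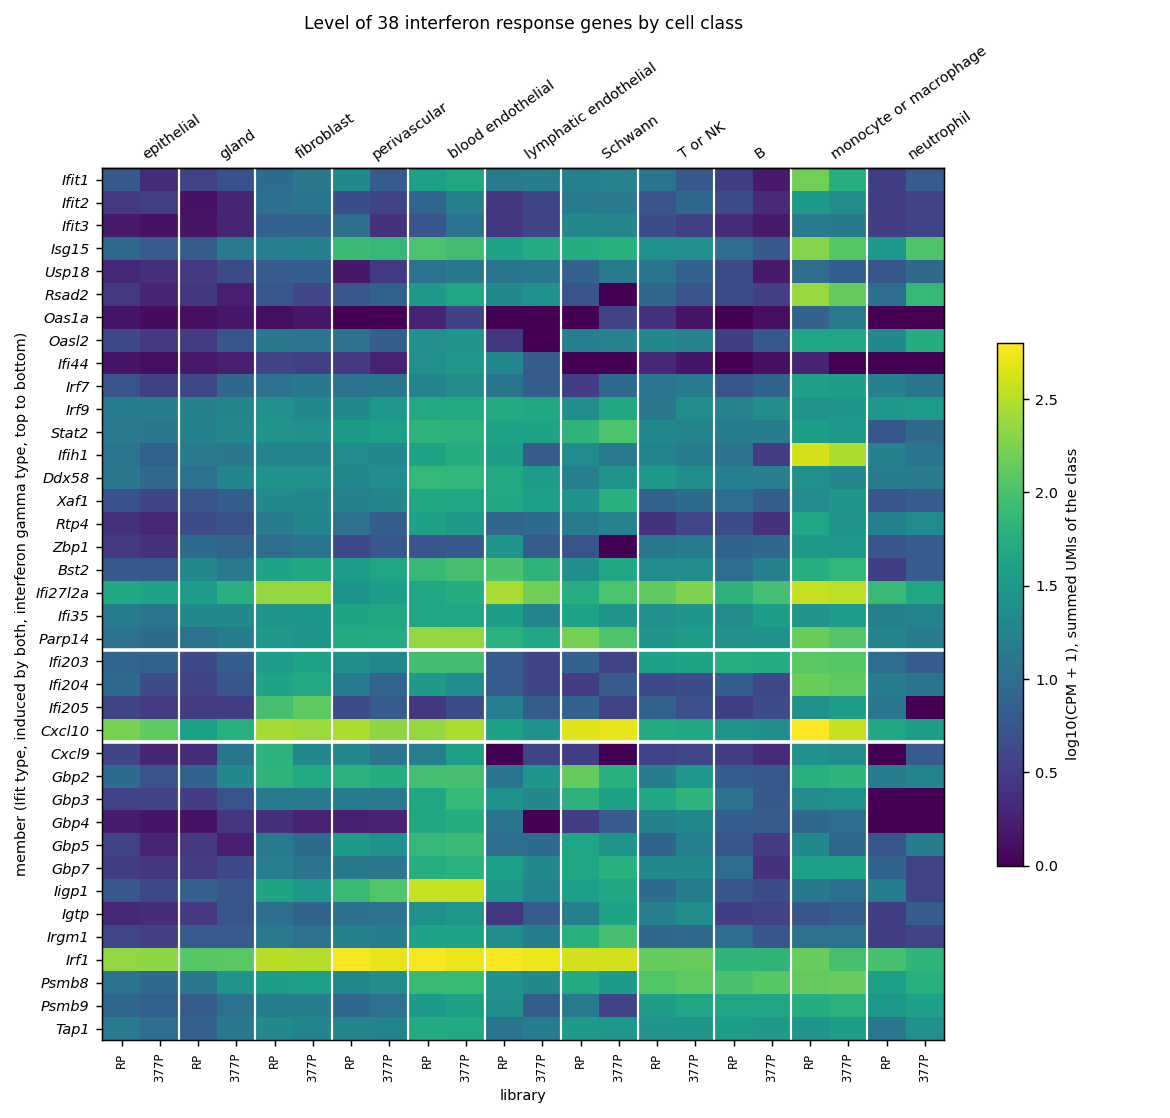
Level of 38 members (rows) in 11 cell classes, with the RP column left of the 377P column in each class, as log10(CPM + 1) of summed UMIs. Ifit1, Rsad2 and Ifih1 are bright in macrophages, where Ifih1 had 416 CPM in RP and 286 CPM in 377P, and Iigp1 and Gbp4 in blood endothelium. In 377P, Ifit1 in macrophages was within counting error of its level in blood endothelium.

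In macrophages Ifit1, Isg15, Rsad2, Ifih1 and Cxcl10 were higher in the RP library, by more than counting error. Ifit1, which binds foreign RNA lacking the host cap methylation, had 161 CPM (148 to 176) in RP and 54.3 CPM (45.4 to 64.5) in 377P, a 2.97-fold ratio (log2 1.57, 1.29 to 1.86). Isg15, a ubiquitin-like protein, had 196 CPM in RP and 114 CPM in 377P (log2 0.79). Rsad2 had 234 CPM in RP and 138 CPM in 377P (log2 0.76). Cxcl10, a chemokine that draws T cells through Cxcr3, had 635 CPM in RP and 362 CPM in 377P (log2 0.81). The difference in Ifih1 was smaller, at log2 0.54 (0.41 to 0.67).

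The rest of the Ifit type list was mixed in macrophages. Of 20 measured members, 15 were higher in RP and 5 were past a ratio of 1.5, namely Ifit1, Isg15, Rsad2, Rtp4 and Usp18 (30 and 14 UMIs, with an interval that includes 1), where 11.5% of all 11521 measured genes were past it in that direction. Oas1a, an enzyme of the RNA-degrading 2-5A pathway, was past it the other way, with 6.61 CPM in RP and 12.96 CPM in 377P (22 and 31 UMIs), as were 9.92% of all genes. Bst2, which tethers budding virions, had 55.3 CPM in RP and 71.5 CPM in 377P. Ifi205 had 24.6 CPM in RP and 35.5 CPM in 377P. The median log2 ratio was 0.17 for the Ifit type list, -0.09 for the interferon gamma type list and -0.06 for all measured genes. Gbp5, which promotes inflammasome assembly, was the 1 interferon gamma type member past the ratio, with 20.4 CPM in RP and 7.94 CPM in 377P (68 and 19 UMIs).

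The Ifit1 UMIs lay in a minority of macrophages. Ifit1 was found in 101 of 604 RP and 42 of 327 377P macrophages, and the 10 cells with the most Ifit1 held 47.1% of its UMIs in RP and 67.7% in 377P. With every cell thinned to 2000 UMIs, 11.5% of RP and 5.56% of 377P macrophages kept an Ifit1 UMI, against 0.955% of RP and 0.233% of 377P epithelial cells, set as the background level. Macrophages with a thinned Ifit1 UMI, 65 in RP and 17 in 377P, had on average 4.66 and 4.47 of the other 20 Ifit type members. Those without had 1.78 in RP and 1.68 in 377P. Of the 13 interferon gamma type members, macrophages with the UMI had 1.38 in RP and 1.12 in 377P. Those without it had 0.793 and 0.824. Marker sums of other classes also differed in these macrophages, with 12 gland markers at 1132 CPM in RP and 276 CPM in 377P and 14 B cell markers at 177 CPM in RP and 368 CPM in 377P, none of them at 0, and their part in the result was not tested. The same 14 markers, Ly6d among them, summed to 1759 CPM in RP and 1406 CPM in 377P epithelial cells, so this sum does not measure B cell RNA alone. Gland marker sums were higher in RP in every class other than gland cells, at 862 to 1581 CPM in RP and 215 to 485 CPM in 377P. In those classes 18 genes secreted by nasal and gland cells summed to 9238 to 21355 CPM in RP and 1842 to 4279 CPM in 377P.

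**Figure D2:**
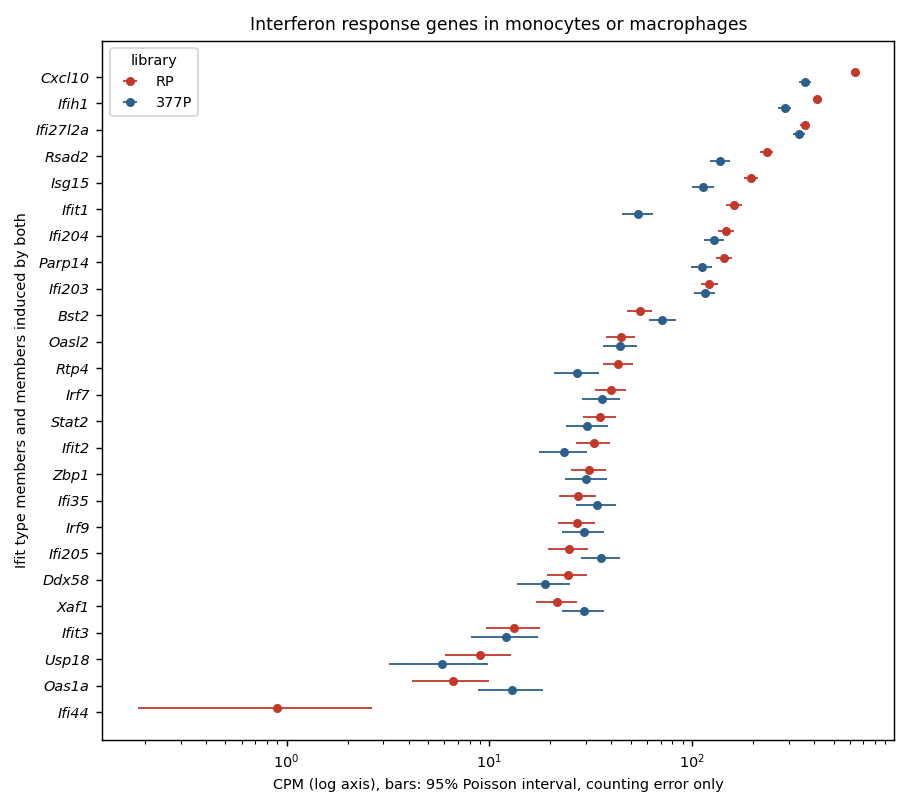
CPM (log axis) of the Ifit type members and the 4 members induced by both kinds of interferon in monocytes or macrophages, with 95% Poisson intervals, RP above 377P. Ifit1 shows the widest gap, 161 CPM in RP and 54.3 CPM in 377P, and Ifi44, at 0 in 377P, has an RP point only.

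In neutrophils Isg15 and Rsad2 were lower in RP, on few UMIs. Isg15 had 13 UMIs in 155 RP neutrophils (30.1 CPM) and 38 UMIs in 108 377P neutrophils (106 CPM). Rsad2 had 4 UMIs in RP and 26 in 377P, or 9.27 and 72.6 CPM. Of 5 measured Ifit type members, 3, Isg15, Rsad2 and Oasl2, were past the ratio downwards, where 13.7% of all genes were. This class was added after the values were seen, and in each library 10 cells or fewer held all UMIs of both genes.

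In fibroblasts most interferon gamma type members were higher in RP. Cxcl9, a chemokine that interferon gamma induces and that attracts Cxcr3-bearing T cells, had 64.2 CPM (60.5 to 67.9) in RP and 20.1 CPM (18.1 to 22.3) in 377P, a 3.19-fold ratio (log2 1.67, 1.503 to 1.84). However, its UMIs lay in 142 of 3096 RP and 99 of 2318 377P fibroblasts. The 10 highest cells held 52.1% of these UMIs in RP and 55.5% in 377P, and 1 RP cell held 146 of 1174. Gbp2, a GTPase that coats pathogen vacuoles, had 65.2 CPM in RP and 49.8 CPM in 377P (log2 0.39), but a log2 ratio of -0.013 after thinning. Gbp7 had 14.98 CPM in RP and 10.8 CPM in 377P, and Igtp, a further immunity-related GTPase, had 9.51 CPM in RP and 7.03 CPM in 377P. Of 13 members, 10 were higher in RP and 2, Cxcl9 and Gbp4 (26 and 15 UMIs), were past a ratio of 1.5, where 7.03% of all genes were. The median log2 ratio was 0.39, against -0.02 for all genes. It was -0.00 for the 20 measured Ifit type members, of which 10 were higher in RP and 1, Rsad2, was past the ratio.

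Several members were lower in RP fibroblasts. Ifi205 had 93.4 CPM in RP and 128 CPM in 377P (log2 -0.46), and its relative Ifi203 had 33.2 CPM in RP and 41.5 CPM in 377P (log2 -0.32). Averaged over the clusters that both libraries filled, their log2 ratios were -0.10 for Ifi205 and 0.38 for Ifi203. Ifit1 had 8.91 CPM in RP and 11.9 CPM in 377P, the opposite direction to that in macrophages. Rtp4, an inhibitor of flavivirus replication, had 14.2 CPM in RP and 18.1 CPM in 377P. No member was past the ratio in this direction, where 6.58% of all genes were.

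Of the fibroblast clusters compared, the interferon gamma type list had its widest ratio in cluster 7, which was singled out after its values were seen. This cluster, built without the members, held 438 RP and 290 377P fibroblasts, and its leading genes against other fibroblasts were Tnn, Mmp13, Gpx3, Fmod and Matn4. There, all 12 measured interferon gamma type members were higher in RP and 10 were past the ratio, where 8.31% of all genes in the cluster were, with a median log2 ratio of 1.04 (median of lower bounds 0.48, of upper bounds 1.60). Cxcl9 had 183 CPM in RP and 22.1 CPM in 377P, an 8.29-fold ratio (6.49 to 10.7). Igtp had 21.98 CPM in RP and 5.68 CPM in 377P. Iigp1 had 75.98 CPM in RP and 29.996 CPM in 377P, and Gbp2 had 81.0 CPM in RP and 33.2 CPM in 377P. The immunoproteasome subunit Psmb9 had 27.2 CPM in RP and 12.6 CPM in 377P, and the peptide transporter Tap1 had 37.0 CPM in RP and 21.8 CPM in 377P.

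The Ifit type median in cluster 7 was 0.17, with 4 of 20 members past the ratio upwards and 2 downwards, where 9.37% of all genes were. The difference between the lists was not tested. Ifit2 had 5.02 CPM in RP and 10.7 CPM in 377P, and Isg15 had 12.9 CPM in RP and 13.3 CPM in 377P. Cxcl10 had 463 CPM in RP and 177 CPM in 377P. In cluster 22 (218 RP and 183 377P cells) the interferon gamma type median was 0.05, with 2 of 8 members past the ratio, where 9.24% of all genes were. Set side by side, the main fibroblast clusters 9 of RP and 8 of 377P gave a median of 0.02, with none of 13 members past the ratio in either direction (no test was made), and Cxcl9 at 31.0 CPM in RP and 20.9 CPM in 377P.

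A small number of cells carried the Cxcl9 in cluster 7 too. It was found in 53 of 438 RP cells and 16 of 290 377P cells, and the 10 highest cells held 77.1% of its UMIs in RP and 91.4% in 377P. These 10 RP cells also held 23.2% of the UMIs of 11 other interferon gamma type members, Irf1 left out, but 5.99% of Ifit type UMIs and 4.79% of all UMIs. The 10 377P cells, the lowest of which had 1 Cxcl9 UMI, held 12.1%, 7.43% and 4.74%. After thinning, 6.10% of RP cells (4.03 to 8.82) and 1.38% of 377P cells (0.378 to 3.51) in the cluster kept a Cxcl9 UMI, and 9.86% of RP cells (7.20 to 13.1) and 3.46% of 377P cells (1.67 to 6.27) had at least 3 interferon gamma type members, by exact binomial intervals. As a background level, the share of epithelial cells with a Cxcl9 UMI after thinning was 0.497% in RP and 0.427% in 377P. The 17 macrophage markers in the cluster, none at 0, summed to 321 CPM in RP and 201 CPM in 377P, near those of all fibroblasts at 326 and 180 CPM, and the 18 T or NK markers, 3 of them at 0 in RP and 1 in 377P, to 51.1 CPM in RP and 95.7 CPM in 377P. Gland markers summed to 808 CPM in RP and 242 CPM in 377P (862 and 229 CPM in all fibroblasts). The 12 mast cell or basophil markers summed to 181 CPM in RP and 51.2 CPM in 377P (72.5 and 79.1 CPM in all fibroblasts). The 10 chondrocyte markers summed to 28.7 CPM in RP and 144 CPM in 377P. Their part in the result was not tested.

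**Figure D3:**
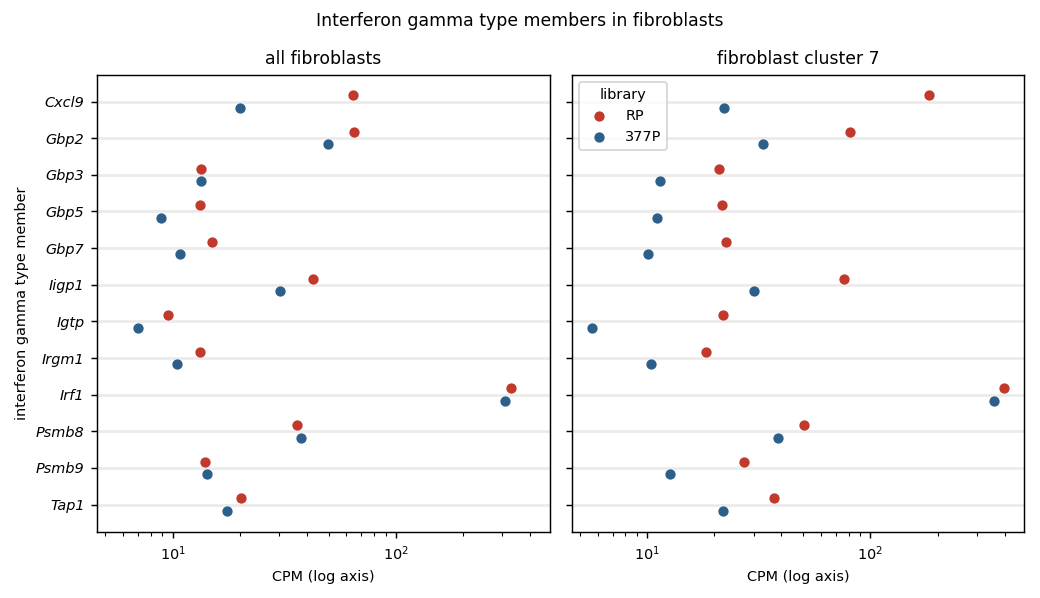
CPM (log axis) of 12 interferon gamma type members in all fibroblasts (left panel) and in fibroblast cluster 7 (right panel), RP above 377P in each row. In cluster 7 every RP point lies right of its 377P point, with Cxcl9 at 183 CPM in RP and 22.1 CPM in 377P.

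Blood endothelium, the class with the most interferon gamma type RNA, had few members past the ratio. Of 13 members, 3 were higher in RP, none was past the ratio upwards and 2 were past it downwards, where 8.29% and 8.68% of all genes were. The median log2 ratio was -0.13, and it was -0.20 for 20 Ifit type members. Cxcl9 had 14.9 CPM in RP and 38.7 CPM in 377P (log2 -1.37), opposite to fibroblasts, but in 26 RP and 18 377P cells whose 10 highest held 80.9% and 94.2% of the UMIs. Gbp3 had 45.5 CPM in RP and 75.4 CPM in 377P (log2 -0.73). Ifit2 had 7.21 CPM in RP and 15.7 CPM in 377P, and Cxcl10 had 229 CPM in RP and 289 CPM in 377P. Higher in RP were Ifi204, at 33.0 CPM in RP and 22.1 CPM in 377P, Irf1, and Isg15 at 101 CPM in RP and 86.3 CPM in 377P, whose log2 ratio was -0.44 after thinning. Cxcl9 was at 0 UMIs in both libraries in cluster 24, led by Gkn3, Gja5 and Sema3g (149 RP and 85 377P cells). The larger cluster 19, with 1038 RP and 374 377P cells, was led by F5 and by Ackr1, Selp and Sele, genes known from venules.

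In perivascular cells the ratios differed between the 2 clusters that made up most of the class. Across the class, 4 of 18 Ifit type members were past the ratio upwards and 2 downwards (8.12% and 7.78% of all genes), and 1 of 12 interferon gamma type members upwards. In cluster 12, led by Colec11, Ccl11 and Ccl19, Cxcl10 had 837 CPM in RP and 581 CPM in 377P and Ifit1 had 68.7 CPM in RP and 12.7 CPM in 377P, and 7 of 15 Ifit type members were past the ratio upwards, where 9.14% of all genes were. The median log2 ratio of these 15 members was 0.12. In cluster 12 the largest marker sum of another class was that of fibroblasts, at 4831 CPM in RP and 5700 CPM in 377P. Over the whole perivascular class it was 2115 and 2710 CPM. Macrophage markers in cluster 12, of which 3 of 17 in RP and 6 in 377P were at 0, summed to 234 CPM in RP and 120 CPM in 377P. Gland markers summed to 1023 CPM in RP and 438 CPM in 377P. Their part in the result was not tested. Over the class, Ifit1 was found in 26 RP and 9 377P cells, and the 10 highest RP cells held 79.0% of its UMIs. In cluster 0, led by Pln, a regulator of muscle calcium, none of 12 was past it upwards and 4 were downwards, where 9.13% and 8.08% of all genes were. There Cxcl10 had 93.9 CPM in RP and 53.7 CPM in 377P, and Ifit1 had 3.12 CPM in RP and 2.44 CPM in 377P. Iigp1 was lower in RP across the class (78.1 CPM in RP and 109 CPM in 377P), as was Irf9 (20.3 CPM in RP and 30.4 CPM in 377P). Cxcl9 had 19.3 CPM in RP and 10.8 CPM in 377P, but its direction turned under 3 other settings, and 30 of its 77 RP UMIs came from 1 cell.

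In T or NK cells most interferon gamma type members were lower in RP. Of 13 members, 1 was higher in RP and 3 were past the ratio downwards, where 7.17% of all genes were, and none upwards, where 17.6% were. Gbp2 had 14.4 CPM in RP and 30.6 CPM in 377P, Gbp3 had 47.4 CPM in RP and 66.1 CPM in 377P, and Irf9 had 12.3 CPM in RP and 23.1 CPM in 377P. Ifi27l2a had 129 CPM in RP and 175 CPM in 377P. The median log2 ratio was -0.29 for this list, -0.07 for 19 Ifit type members and 0.07 for all genes. The clusters differed in direction. In cluster 16, led by Il17a, Il23r and Trdc (195 RP and 341 377P cells), none of 11 measured interferon gamma type members was higher in RP and 8 were past the ratio downwards, where 13.4% of all genes were, against 14.1% upwards. In cluster 17, led by Ccl5 and Nkg7 and with 46 RP and 938 377P cells, 9 of 12 were higher in RP and 6 were past the ratio, but 37% of all genes there were too. Averaged over both clusters, the log2 ratio of Gbp3 turned to 0.39 and that of Gbp2 was -0.49. Gbp3 had 48.1 CPM in RP and 83.0 CPM in 377P in cluster 16, and 181 CPM in RP and 60.6 CPM in 377P in cluster 17. The largest RP cluster of the class, number 15, held 222 of 473 RP T or NK cells. It had 2 377P cells of any class, so it entered neither the cluster comparisons nor these averages. RP cells were fewest in cluster 17, so the class ratios set unequal mixtures of T cell states side by side. B cells lay in different clusters, with 302 of 309 RP cells in cluster 20 and 890 of 930 377P cells in cluster 33. In B cells, Ifi27l2a had 63.3 CPM in RP and 90.9 CPM in 377P; 2 of 11 Ifit type members were past the ratio each way, against 13.1% of all genes upwards and 10.5% downwards.

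In epithelial cells most members had higher CPM in RP, at low levels and in separate clusters. Of 21 Ifit type members, 19 were higher in RP and 10 were past the ratio, where 14.9% of all genes were, and of 13 interferon gamma type members 11 and 5. The median log2 ratios were 0.53 and 0.47, against 0.03 for all genes. In this class 4 of 38 members reached 20% of their highest level in both libraries, namely Irf1, Irf9, Cxcl10 and Ifi35. Cxcl10 stood at 173 CPM in RP and 129 CPM in 377P, and Tap1 at 13.4 CPM in RP and 9.09 CPM in 377P. Ifit1 had 5.16 CPM in RP and 1.32 CPM in 377P, 3.20% and 2.44% of its macrophage level. Its epithelial share is the background level used for macrophages above, so the ratio is not read as a difference in expression. No class gave a separate background for epithelial cells, in which gland markers summed to 945 CPM in RP and 262 CPM in 377P, and the part of free RNA was not tested. In gland cells most members had lower CPM in RP, with 7 of 17 Ifit type and 8 of 12 interferon gamma type members past the ratio downwards, where 25.3% of all genes were, and 1 of each upwards, where 13.4% were. Gbp2 had 6.90 CPM in RP and 20.5 CPM in 377P gland cells, and Tap1 had 6.24 CPM in RP and 12.4 CPM in 377P. Gbp2 had a log2 ratio of -1.57, which was -0.78 with a stricter gate, and 10 cells held 69.0% of its 377P UMIs. Tap1 had a log2 ratio of -0.99, which was -2.20 after thinning. The median of all genes in this class was -0.15. The class was filled differently, with cluster 21 holding 875 of 995 RP cells but 79 of 230 377P cells. Its own 12 markers summed to 14944 CPM in RP and 9553 CPM in 377P, while epithelial markers summed to 2131 CPM in RP and 4514 CPM in 377P. B cell markers, which do not measure B cell RNA alone, summed to 186 CPM in RP and 481 CPM in 377P, and T or NK markers to 26.7 CPM in RP and 123 CPM in 377P. Their part in the result was not tested.

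**Figure D4:**
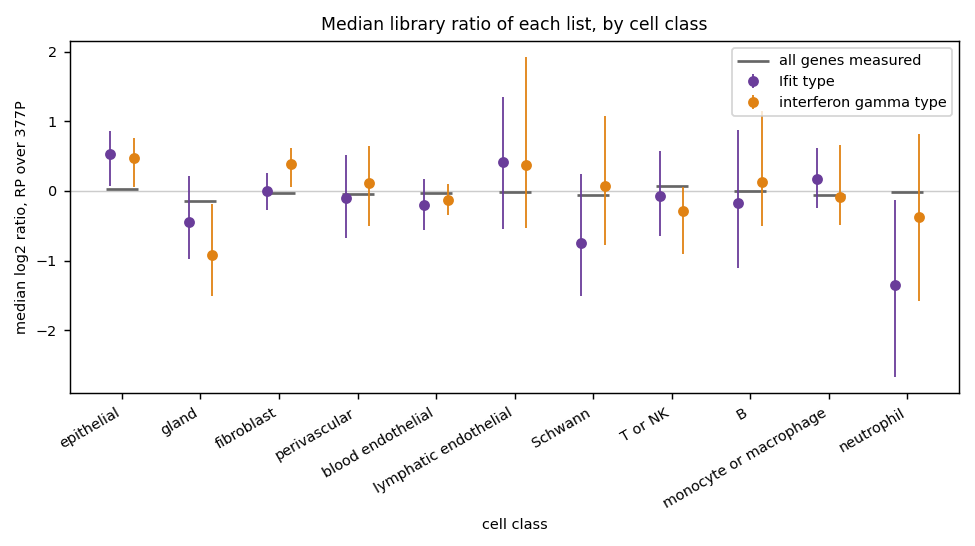
Median log2 ratio, RP over 377P, of Ifit type and interferon gamma type members in 11 cell classes, with the medians of the members' lower and upper 95% bounds as bars and the median of all measured genes as grey dashes. The interferon gamma type median stands at 0.39 in fibroblasts and at -0.92 in gland cells.

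The share of cells with at least 3 members of a list depends on depth. Median depth was lower in RP in each class except gland cells, at 16910 UMIs in RP and 13807 in 377P. Without thinning, 60.4% of RP and 63.0% of 377P macrophages had at least 3 Ifit type members, at medians of 4941.5 and 6379 UMIs. Thinned to 2000 UMIs, the shares were 34.99% (31.1 to 39.1) in RP and 26.8% (21.9 to 32.1) in 377P. In blood endothelium 21.2% of RP and 23.7% of 377P cells had at least 3 Ifit type members, and 25.7% of RP and 29.5% of 377P cells had at least 3 interferon gamma type members. In fibroblasts the interferon gamma type share was 4.83% (4.08 to 5.66) in RP and 3.33% (2.63 to 4.16) in 377P, while the Ifit type share was 6.23% in RP and 6.66% in 377P. Epithelial cells stood at 0.573% in RP (15 of 2618 cells) and 0.155% in 377P (4 of 2574 cells) for the Ifit type list. Fibroblasts with a Cxcl9 UMI after thinning, 73 in RP and 33 in 377P, had 2.25 and 1.85 of the other 12 interferon gamma type members, against 0.726 and 0.708 in those without. They also had more of the 21 Ifit type members, 1.81 in RP and 1.64 in 377P, against 0.846 and 0.865 in those without.

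**Figure D5:**
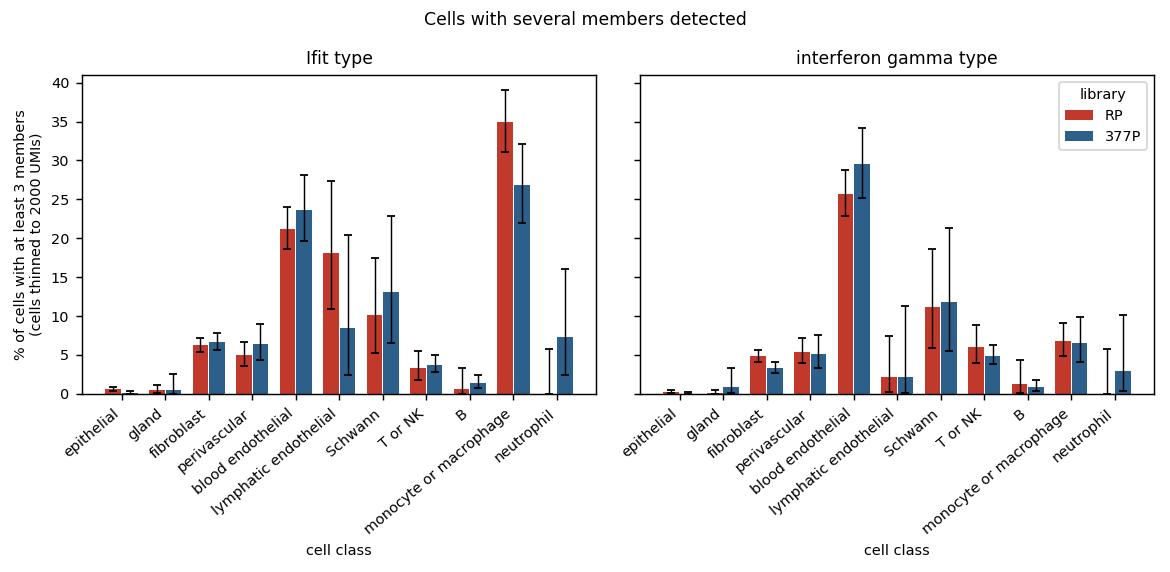
Share of cells, thinned to 2000 UMIs, with at least 3 Ifit type members (left) or at least 3 interferon gamma type members (right), with exact 95% binomial intervals and RP left of 377P. Macrophages lead the first panel at 34.99% in RP and 26.8% in 377P, and blood endothelium the second at 25.7% in RP and 29.5% in 377P.

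The ligands were sparse. Ifna1, Ifna2, Ifna4, Ifna5 and Ifna6 together had 1 UMI in all kept cells. Ifnb1, interferon beta, had 119 UMIs in RP and 20 in 377P, of which 95 in RP and 13 in 377P lay in macrophages, at 28.6 CPM (23.1 to 34.9) and 5.43 CPM (2.89 to 9.29). The ratio was 5.25-fold (2.93 to 10.2). Ifne, interferon epsilon, had 0 UMIs in RP and 21 in 377P, of which 9 lay in gland cells, and Ifnk, interferon kappa, had 17 in RP and 13 in 377P. Ifng had 71 UMIs in RP and 224 in 377P, of which 35 in RP and 167 in 377P lay in T or NK cells and 5 in RP and 15 in 377P in epithelial cells. In T or NK cells it stood at 18.7 CPM (12.997 to 25.95) in RP and 24.7 CPM (21.1 to 28.7) in 377P. Its receptor chain Ifngr1 had 93.6 CPM in RP and 108 CPM in 377P fibroblasts. Of the measured receptor genes, none of 5 was past the ratio in macrophages or blood endothelium, and 1 of 6, Ifnlr1 (17 and 27 UMIs), was past it downwards in fibroblasts. Of all genes, 11.5% were past it upwards and 9.92% downwards in macrophages, 8.29% and 8.68% in blood endothelium, and 6.58% downwards in fibroblasts.

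Among signalling genes, Irf8, a factor of the monocyte lineage, had 77.8 CPM in RP and 104 CPM in 377P macrophages. Socs3, an inhibitor of cytokine signalling, had 286 CPM in RP and 195 CPM in 377P macrophages. Of 8 class I antigen presentation genes outside the members, such as H2-K1, H2-D1 and B2m, none was past the ratio in macrophages, fibroblasts, blood endothelium, epithelium or T or NK cells. In these classes 7.03% to 17.6% of all genes were past it upwards and 4.74% to 9.92% downwards, so few of 8 genes would be. Of 30 measured pathway genes in macrophages, 2 were past the ratio upwards, Ifnb1 and Socs1, and 2 downwards, where 11.5% and 9.92% of all genes were. Of 30 in fibroblasts, 2 were past it downwards, Ifnlr1 and Ciita, and none upwards, where 6.58% and 7.03% of all genes were.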

How the data were processed

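Maxillary periodontium from mouse was profiled with 10x Genomics 3' single-cell RNA sequencing in 2 libraries, RP and 377P. The deposited values are raw UMI counts per gene and barcode, made by the authors with Cell Ranger 7.0.1, per the file headers, on mm10 with STAR, per the submitters' processing notes. Everything below was computed from those counts with Python 3.11.15, numpy 2.4.6, scipy 1.17.1, pandas 2.3.3, Scanpy 1.11.5 and igraph 0.11.9. Barcodes with fewer than 200 detected genes or a mitochondrial share above 20% were dropped, and doublets were called with Scrublet at an expected 12% and removed (569 in RP and 836 in 377P). A marker counted as enriched when a cell's UMIs exceeded its library's pooled share at a Poisson tail of 0.01, and a class needed 3 enriched markers and at least 2 times as many as the next class. This scoring rule was set after the data had been seen. Leiden clusters (3000 variable genes, 40 components, 20 neighbours, resolution 1) were built without the members. UMIs were summed per class and library, and genes with at least 20 UMIs over both libraries counted as measured. Levels are given for 11 classes with at least 50 cells in each library, and 8 classes with at least 200 were compared; neutrophils were added after the values were seen. Ratios are RP over 377P with exact Poisson intervals at 95%, shares have exact Clopper-Pearson intervals, and 1.5 is the ratio used to count members. Cells under 2000 UMIs were left out of thinned values.

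With 1 library per title, no test between them was possible. Members named for a difference had at least 50 UMIs where higher, at least 20% of their highest class there and an interval of the ratio leaving out 1, the first 4 in each direction in main classes and 2 in others; further members were named for contrast after their values were seen. The members and lists were chosen with earlier results of these data known. The script was tested on simulated counts. The Gbp genes and the Ifi203 family are related in sequence, and whether reads were lost or misassigned among them was not checked. The alternatives tried were doublets kept, a mitochondrial limit of 10%, at least 1000 UMIs, thinning, another denominator, a stricter gate, Leiden classes, a 1 UMI minimum and shared clusters. The values of 1 pathway gene are not reported here.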

Additional observations from a re-analysis of the deposited data

Results flagged for a closer look

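Some members had ratios of opposite direction in 2 classes, with intervals on either side of no change; the difference between the classes was not tested in any case. Ifit3 had a log2 ratio, RP over 377P, of 2.57 in perivascular cells (38 UMIs in 22 RP cells and 4 UMIs in 3 377P cells) and of -1.18 in blood endothelium. Gbp2 had a log2 ratio of 1.02 in epithelial cells and of -1.57 in gland cells, which was -0.78 with the stricter gate and -0.997 averaged over shared clusters; 1 cell held 41 of 281 epithelial RP UMIs and 1 cell 19 of 84 gland 377P UMIs. Gbp5 had a log2 ratio of 1.54 in epithelial cells (91 UMIs in 63 RP cells and 42 UMIs in 40 377P cells). It was -1.12 in T or NK cells (13 UMIs in 11 RP cells and 102 UMIs in 70 377P cells). The 10 highest epithelial RP cells held 36.3% of the Gbp5 UMIs. Epithelial cells had no separate background, so the Gbp2 and Gbp5 ratios there are not read as differences in expression. Cxcl9 had a log2 ratio of 1.67 in fibroblasts and of -3.09 in gland cells, where 41 of the 46 377P UMIs came from 1 cell.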

How the results depend on the processing

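The direction of 36 named differences, each of 1 member in 1 class, was kept for all 36 with doublets kept, a mitochondrial limit of 10%, at least 1000 UMIs and another denominator, for 35 with Leiden classes, 35 with the stricter gate, 33 with thinning and 30 of 32 within shared clusters. Cxcl9 in perivascular cells turned to a log2 ratio of -0.21 with thinning, -0.030 with the stricter gate and -0.077 with Leiden classes, and the cause was not tested. Thinning also turned Gbp2 in fibroblasts to -0.013 and Isg15 in blood endothelium to -0.44. The average over shared clusters turned Ifi203 in fibroblasts to 0.38 and Gbp3 in T or NK cells to 0.39. Within shared clusters the interferon gamma type median in fibroblasts was 0.75. These clusters, 7 (median 1.04) and 22 (median 0.05), left out the main fibroblast cluster of each library. The main cluster held 77.9% of RP fibroblasts and 76.4% of 377P fibroblasts. Set side by side, the main clusters gave an interferon gamma type median of 0.02. Over all alternatives, which did not include that comparison, the median in fibroblasts ran between 0.23 and 0.75. The Ifit type median in macrophages ran between 0.14 and 0.33. The interferon gamma type median in T or NK cells ran between -0.35 and 0.02. Thinning moved the log2 ratio of shares of cells with at least 3 Ifit type members. In epithelium it turned from -0.14 to 1.88 (15 RP and 4 377P cells), and in macrophages from -0.060 to 0.38. The direction was kept in fibroblasts (-0.45 to -0.096), blood endothelium (-0.43 to -0.16) and T or NK cells (-0.96 to -0.18). For interferon gamma type members it turned from -0.030 to 2.56 in epithelium (6 of 2618 RP and 1 of 2574 377P cells). It also turned from -0.46 to 0.54 in fibroblasts, from -0.18 to 0.046 in macrophages and from -0.86 to 0.30 in T or NK cells. In blood endothelium the direction was kept (-0.39 to -0.20). No paired analysis was possible because each title has 1 library, and for the same reason no replicate could be left out.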
